A study of Homo sapiens with 6 samples.

Results

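The 5S rRNA genes and 5S pseudogenes with the brighter array features were compared between Caco-2 cells that overexpressed apoM and NC cells. They were selected on their level: a gene symbol that begins with RNA5S, on a feature with a single symbol, with a mean deposited log2 value of 5 or more over the 6 arrays. This gave 236 of 484 such symbols, among 33616 genes tested in all. The level that chose them is therefore no result. The rule did not ask for a difference between the groups, but its mean included the apoM overexpression arrays. A rise could thus help a symbol to enter, and 12 of the 236 had an NC mean under 5. The symbols comprised 10 5S genes and 226 pseudogenes, and RefSeq (GRCh38.p14), matched by symbol, gave all 10 the type rRNA and all 226 the type pseudogene.

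Caco-2 is an established line from a human colon carcinoma that serves as a stand-in for intestinal epithelium. Total RNA was measured on Affymetrix arrays in 2 groups of 3, labelled Overexpression with genotype apoM and NC with genotype NC. The labels do not spell out NC, and they give no vector, promoter, clone, time or dose for the overexpression. Whether the 3 arrays of each group stem from separate cultures is not stated, and all p-values therefore rest on a spread that may be only technical.

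5S rRNA is the smallest RNA of the large ribosomal subunit. It is made by RNA polymerase III outside the nucleolus, where the zinc finger protein TFIIIA, and then TFIIIC and TFIIIB, assemble on a promoter that lies inside the transcribed sequence. The new transcript is held by the La protein, joins the ribosomal proteins RPL5 and RPL11 as the 5S RNP, and enters the nascent large subunit. The genes proper stand as a tandem array on the long arm of chromosome 1, while many partial or diverged copies, most of them regarded as pseudogenes, are scattered over the genome.

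Copies that are near-identical in sequence cannot be read apart by short probes. Several 5S features had the same values on every array, although no 5S sequences were compared here. The 10 5S gene symbols carried only 3 distinct sets of values, equal to all 6 decimals deposited. RNA5S7, RNA5S10 and RNA5S17 shared one set, RNA5S11 to RNA5S16 shared another, and RNA5S9 had its own. A further 7 features, each annotated with several 5S genes, repeated the RNA5S17 values on every array. Between them they carried the 7 5S genes that have no feature of their own and were not counted, RNA5S1 to RNA5S6 and RNA5S8. One of these features also named RNA5S11 to RNA5S16, whose own features carried the other shared set. An 8th feature with several symbols, for the pseudogenes RNA5SP411, RNA5SP412 and RNA5SP414, was dim at a mean of 3.24. The 236 symbols thus held 229 distinct sets of values, and a pseudogene feature may equally have read transcripts of the genes proper. No value below can be assigned to a single genomic copy.

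APOM, the gene overexpressed, read 15.5, 15.6 and 15.9 on the apoM overexpression arrays, against 5.38, 5.84 and 6.41 on the NC arrays. In limma its log2 change, apoM overexpression minus NC throughout, was 9.76. The epithelial markers EPCAM, CDH1, KRT8, KRT18, VIL1, CDX2 and FABP1 had means from 12.7 to 18.3, while CDX1 and LGALS4 were dim at 3.91 and 3.90. The medians of fibroblast, leukocyte and endothelial markers were 6.24, 5.65 and 5.99, near the median of 5.32 over all genes tested. The fibroblast marker COL1A1 was brighter, at a mean of 9.17, and COL1A2 was at 6.76. The array medians over all 135750 features ran from 4.51 to 4.53 in the apoM overexpression group and from 4.48 to 4.49 in NC. On the first principal component of all genes tested, with 51.1% of the variance, the apoM overexpression arrays lay at -41.9, -39.6 and -24.3 and the NC arrays at 59.6, 39.0 and 7.11, so that NC replicate 3 lay nearest to the apoM overexpression arrays.

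Both the 5S genes and many 5S pseudogenes rose in the apoM overexpression group. Of the 236 symbols, 67 passed an adjusted p of 0.05 as higher and none as lower (limma, Benjamini-Hochberg over all 33616 genes). This was 28.4% of them, where 1.7% of all genes tested were called higher, 0.357% lower and 2.06% either way. The 67 include 3 symbols with an NC mean under 5, which could enter only by reading higher with apoM overexpression. Among genes with a mean of 5 or more, which is the level the rule asked for, 2.92% were called higher, 0.615% lower and 3.53% either way. At an unadjusted p of 0.05, 127 were higher and 7 lower, or 53.8% and 2.97%. Over all genes tested these shares were 14.3% higher and 4.85% lower, and of the 18544 genes with a mean of 5 or more, 3717 were higher and 1349 lower. The median log2 change was 0.50, with quartiles of 0.13 and 1.12, against a median of 0.09 over all genes tested. Values of the 2 groups were fully apart for 123 symbols that were higher and for 7 that were lower, and overlapped for the other 106. Over all genes tested these shares were 17.3% higher and 7.08% lower, and over genes with a mean of 5 or more 22.5% higher and 10.1% lower. Among the 5S symbols 52.1% were apart and higher. With identical features counted once, 60 of 229 passed. Of the 20 largest rises of all genes tested, 13 were 5S symbols, 9 of which belonged to the shared sets of the genes proper.

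The 5S genes proper showed some of the largest differences. RNA5S7, RNA5S10 and RNA5S17, one set of values, read 17.21, 18.22 and 16.72 on the apoM overexpression arrays, against 13.57, 14.21 and 14.48 on the NC arrays. The lowest apoM overexpression array lay well above the highest NC array. The mean was 17.38 ± 0.77 with apoM overexpression and 14.09 ± 0.47 in NC (SD, n = 3 each), a log2 change of 3.29 with a standard error of 0.36 (limma adjusted p = 0.0102), which is 9.81-fold on the linear scale. RNA5S11 to RNA5S16, the larger shared set, read 16.98, 17.03 and 16.23 with apoM overexpression, against 13.36, 14.22 and 14.79 in NC. Their log2 change was 2.62 (SE 0.34, limma adjusted p = 0.0143), or 6.15-fold, and again the groups were apart. The feature that names these genes together with RNA5S6 and RNA5S17 had the RNA5S17 values, with a log2 change of 3.29. RNA5S9 read 16.67, 17.33 and 16.15 with apoM overexpression, against 13.11, 13.82 and 14.11 in NC, a log2 change of 3.04 (SE 0.32, limma adjusted p = 0.0102). In all 10 symbols replicate 2 was the highest and replicate 3 the lowest apoM overexpression array, while replicate 1 was the lowest and replicate 3 the highest NC array. None of these values reached the top of the arrays, where the brightest features stood at 19.93.

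**Figure D1:**
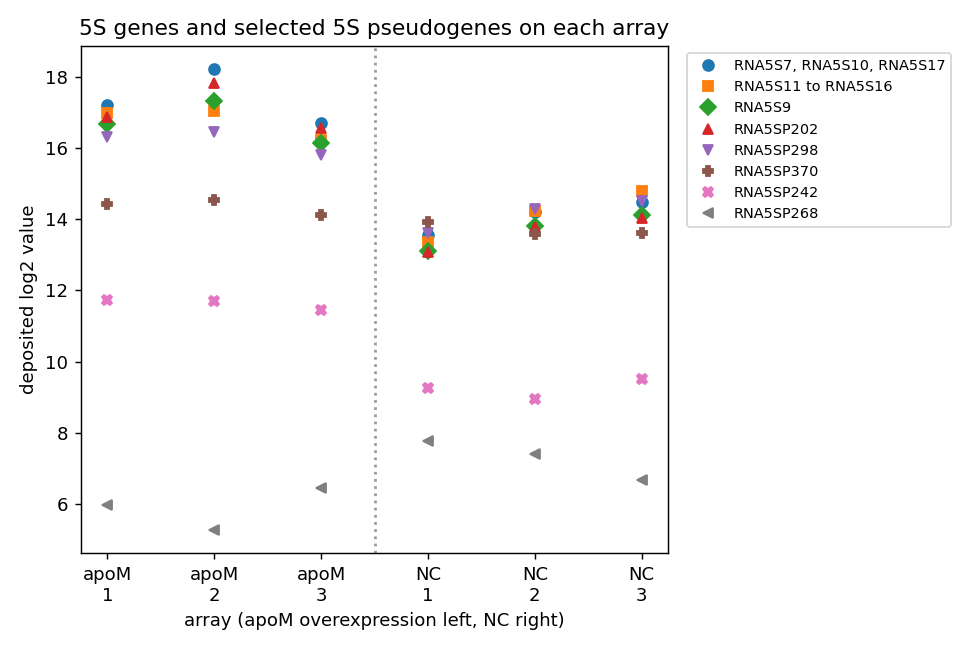
Deposited log2 values on each array, apoM overexpression on the left of the dotted line and NC on the right, for the 3 distinct sets of values of the 5S genes and for 5 pseudogenes; each point is one array. The 5S gene sets stand between 16.15 and 18.22 with apoM overexpression and between 13.11 and 14.79 in NC, RNA5SP370 differs far less at a log2 change of 0.65, and RNA5SP268 is lower with apoM overexpression.

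The brightest pseudogenes behaved much like the genes proper. RNA5SP202, on chromosome 6 by its feature name, had the largest change of all 236 symbols. It read 16.86, 17.82 and 16.57 with apoM overexpression, against 13.08, 13.77 and 14.04 in NC, a log2 change of 3.46 (SE 0.33, limma adjusted p = 0.0078), or 11.0-fold. Its values ran almost parallel to those of RNA5S17, with a Pearson r of 0.999 over the 6 arrays and of 0.991 for deviations from the group means, both given only as a description of features that may bind the same transcript. RNA5SP298 read 16.31, 16.46 and 15.81 with apoM overexpression, against 13.61, 14.29 and 14.52 in NC (log2 change 2.06, SE 0.26, limma adjusted p = 0.0138). RNA5SP149 changed by 2.60, RNA5SP226 by 2.29, RNA5SP493 by 2.27, RNA5SP199 by 1.60 and RNA5SP389 by 1.38, all past the threshold. RNA5SP370 was the single symbol with a mean of 10 or more that did not pass. It read 14.42, 14.53 and 14.13 with apoM overexpression, against 13.93, 13.58 and 13.62 in NC. Its groups were apart, but its log2 change was 0.65 (SE 0.18, limma adjusted p = 0.0821), and its deviations from the group means followed those of RNA5S17 with an r of 0.241.

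The change followed the level of the feature. That level is the mean over all 6 arrays, apoM overexpression included, so a rise in itself lifts a symbol's level and can move it to a brighter class. All 15 symbols with a mean of 10 to under 12 passed as higher, as did 17 of 18 with a mean of 12 or more and 13 of 19 with a mean of 8 to under 10. Of those with a mean of 6 to under 8, 15 of 95 passed, and of those with a mean of 5 to under 6, 7 of 89. The median changes from the dimmest to the brightest class were 0.26, 0.45, 1.35, 2.29 and 2.62. The brightest class holds all 10 5S genes, on 3 distinct sets of values. Its median of 2.62 is the change shared by RNA5S11 to RNA5S16. Of its 8 pseudogenes alone, 7 passed, with a median change of 2.16, so these showed no further step above the class below. Over all genes tested in the same classes the median changes were 0.10, 0.09, 0.09, 0.10 and 0.18, and the shares called higher ran from 1.01% to 6.52%. Across the 229 distinct sets of values, level and change had a Spearman rho of 0.56. Across the 18544 genes of all kinds with a mean of 5 or more, rho was 0.05. Both are descriptions across features that share the same 6 arrays, and 5S features may also share probes.

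**Figure D2:**
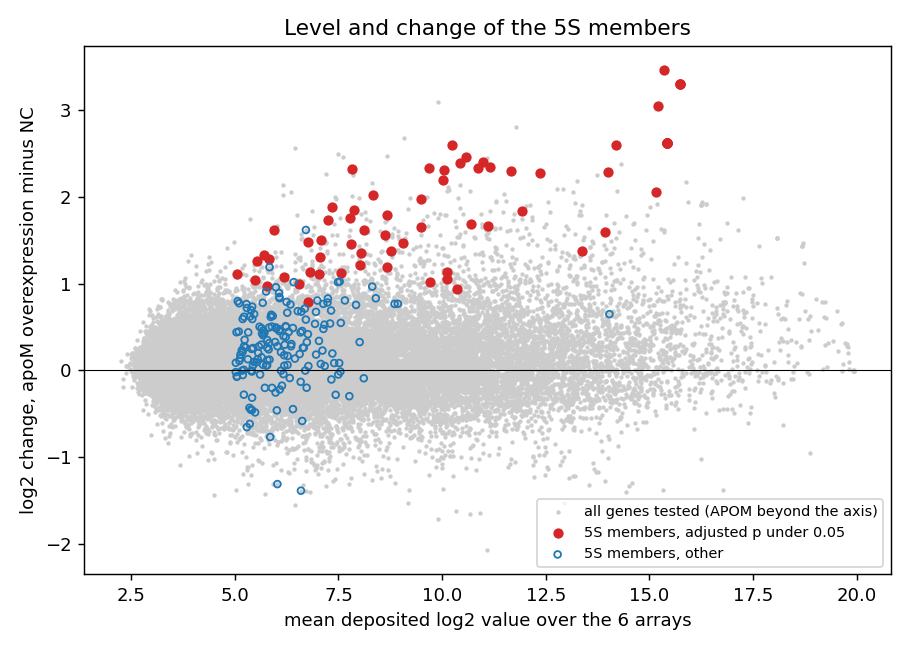
Log2 change, apoM overexpression minus NC, against the mean deposited log2 value over the 6 arrays, for all genes tested except APOM (grey) and the 236 5S symbols (filled where the limma adjusted p was under 0.05, open otherwise). The filled points lie at changes from 0.79 to 3.46 and make up nearly all 5S symbols with a mean of 10 or more; 2 open points near a mean of 6 lie below -1.

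In the class of means from 10 to under 12, the largest changes were those of RNA5SP335 at 2.59, RNA5SP99 at 2.45, RNA5SP263 at 2.40 and RNA5SP242 at 2.39. RNA5SP141 and RNA5SP429 followed at 2.34 and 2.33, RNA5SP85 and RNA5SP74 at 2.30 and 2.29, and RNA5SP191 at 2.19. RNA5SP150 changed by 1.83, RNA5SP368 by 1.69, RNA5SP122 by 1.66, RNA5SP77 by 1.14, RNA5SP355 by 1.05 and RNA5SP352 by 0.94. RNA5SP242 had the smallest p of the 236. It read 11.74, 11.71 and 11.45 with apoM overexpression, against 9.27, 8.96 and 9.50 in NC, so both groups were tight and apart (SE 0.18, limma adjusted p = 0.00282). RNA5SP85 came next, at 11.30, 11.38 and 10.90 with apoM overexpression, against 8.65, 8.91 and 9.12 in NC (SE 0.19, limma adjusted p = 0.00387).

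In the class of means from 8 to under 10, RNA5SP506 changed most, by 2.33, followed by RNA5SP450 at 2.02, RNA5SP399 at 1.97 and RNA5SP382 at 1.79. The other 9 that passed were RNA5SP71, RNA5SP387, RNA5SP161, RNA5SP403, RNA5SP336, RNA5SP251, RNA5SP48, RNA5SP343 and RNA5SP302, with changes from 1.65 for RNA5SP71 to 1.01 for RNA5SP302. In the class from 6 to under 8, RNA5SP19 stood out with a change of 2.32, reading 8.77, 9.21 and 8.98 with apoM overexpression, against 5.98, 6.91 and 7.12 in NC. RNA5SP134, RNA5SP435, RNA5SP440 and RNA5SP325 changed by 1.88, 1.84, 1.75 and 1.74. The other 10 of that class, RNA5SP119, RNA5SP351, RNA5SP183, RNA5SP86, RNA5SP437, RNA5SP428, RNA5SP388, RNA5SP221, RNA5SP513 and RNA5SP38, changed by 1.51 for RNA5SP119 down to 0.79 for RNA5SP38. The 7 dimmest that passed were RNA5SP290 at 1.62, RNA5SP192 at 1.33, RNA5SP276 at 1.28, RNA5SP132 at 1.26, RNA5SP433 at 1.11, RNA5SP427 at 1.05 and RNA5SP359 at 0.97.

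Of the 236 symbols, 12 had an NC mean under 5 and entered through their apoM overexpression values. RNA5SP132, RNA5SP427 and RNA5SP433 were the 3 of them that passed, and such members had to differ to enter. RNA5SP433 read 5.62, 5.51 and 5.72 with apoM overexpression, against 4.60, 4.50 and 4.41 in NC. A single symbol had an apoM overexpression mean under 5. At the edge of the rule, RNA5SP197 and RNA5SP459 lay just inside with means of 5.02 each and changes of 0.09 and -0.02. RNA5SP482 and RNA5SP35 lay just outside with means of 4.998 and 4.992 and changes of -0.11 and -0.0009. Of the 248 symbols below the rule's level, 6 passed as higher and none as lower. That is 2.42% higher, near the 1.7% over all genes tested. Their median change was 0.17, against 0.09 over all genes tested.

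A smaller number of 5S pseudogenes read lower with apoM overexpression, and none of them passed the threshold. RNA5SP268 read 5.99, 5.27 and 6.46 with apoM overexpression, against 7.78, 7.40 and 6.68 in NC, a log2 change of -1.38 (SE 0.33, limma adjusted p = 0.0603). RNA5SP82 read 5.13, 4.90 and 6.09 with apoM overexpression, against 6.63, 7.22 and 6.20 in NC, a log2 change of -1.31 (SE 0.33, limma adjusted p = 0.0681). In both, the groups were apart by a small gap between apoM overexpression replicate 3 and NC replicate 3. Both passed as lower with NC replicate 3 left out, at limma adjusted p-values of 0.0172 for RNA5SP268 and 0.0313 for RNA5SP82, and RNA5SP82 also with apoM overexpression replicate 3 left out, at 0.0492. RNA5SP385 read 5.46, 5.07 and 5.88 with apoM overexpression, against 6.84, 6.03 and 5.84 in NC, and its groups overlapped. In all, 40 of the 236 had a change below 0.

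The members shared little in position. They lay on 24 chromosomes by their feature names, 34 of them on chromosome 1, where 15 passed, 10 of those being the genes proper. In RefSeq their median length was 114 bases, against 121 bases for RNA5S17. Copies of 110 to 130 bases passed in 38 of 131 cases with a median change of 0.50, and shorter ones in 24 of 88, with a median change of 0.51. Copies of 89 to 91 bases, a class formed after the values were seen, numbered 14 in all. They made up 9 of the 23 pseudogenes with a mean of 10 or more, among them RNA5SP298, RNA5SP149, RNA5SP226, RNA5SP335 and RNA5SP370.

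Many 5S pseudogenes lie within the span of another gene, so the values of those genes were set beside them. By RefSeq spans, which include introns and give no strand here, 153 of the 236 lay inside a protein-coding or lncRNA gene, and for 120 of these the spanning gene was itself tested. Of these 120, 37 passed as higher, and none of the genes that spanned them passed. Over all genes tested only 2.06% were called either way, so a count of none says little here. Beside the symbols that did not pass, 1 spanning gene passed. The median change of the genes that spanned the 37 was 0.0011, against 0.04 for the genes that spanned symbols that did not pass. RNA5SP242 lies within GARIN1A, which changed by 0.12, RNA5SP85 within GREB1, which changed by 0.25, RNA5SP335 within NAV2, which changed by -0.31, and RNA5SP506 within EDA, which changed by -0.0042. Over the 120 pairs the changes had a Pearson r of -0.07 and a Spearman rho of -0.09, given as a description.

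The genes for the machinery of 5S synthesis showed smaller differences. Of 12 genes for factors of RNA polymerase III transcription, none passed in limma. Only 3.53% of genes with a mean of 5 or more were called either way, so a count of none says little here. At an unadjusted p of 0.05, 1 of the 12 was higher and 2 were lower. Of the 18544 genes with a mean of 5 or more, 3717 were higher and 1349 lower at that p. The median change of the 12 was 0.21. GTF3A, which encodes TFIIIA, read 15.5, 15.7 and 15.7 with apoM overexpression, against 15.4, 15.1 and 15.4 in NC, a change of 0.31 (SE 0.16, adjusted p = 0.345). BDP1, a subunit of TFIIIB, was at -0.70 (SE 0.18, adjusted p = 0.0733), and TBP, the TATA-binding protein, at -0.42. GTF3C5, a subunit of TFIIIC, was at 0.48 and MAF1, the repressor of RNA polymerase III, at 0.34. The quantity in each case is the log2 difference between the groups.

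Of 16 RNA polymerase III subunits measured, none passed in limma, which again says little beside the 3.53% called among genes with a mean of 5 or more. At an unadjusted p of 0.05, 4 of the 16 were higher, as were 3717 of the 18544 genes with a mean of 5 or more. The median change of the 16 was 0.24. The largest changes were those of POLR2L at 1.22 (SE 0.28, adjusted p = 0.0576), POLR2E at 0.90 (SE 0.21, adjusted p = 0.0568), POLR2K at 0.80 and POLR1D at 0.65, all 4 subunits shared with other polymerases, while POLR2H, also shared, was at 0.19. The catalytic subunits POLR3A and POLR3B were at 0.11 and 0.38.

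Among 9 measured genes of the 5S RNP and its assembly, RPL5 passed as lower and none as higher. Of genes with a mean of 5 or more, 0.615% were called lower and 2.92% higher. RPL5, which binds 5S rRNA, read 8.02, 8.42 and 8.83 with apoM overexpression, against 10.2, 10.2 and 9.39 in NC (log2 change -1.53, SE 0.27, limma adjusted p = 0.0316). Its call was lost in 6 of 14 alternatives, and its limma adjusted p went as high as 0.129 when single arrays were dropped. The platform annotation gives this feature no gene ID, so which transcript it reads is uncertain. RPL11, its partner, was at 0.53 (SE 0.19, adjusted p = 0.171). RPF2, an assembly factor that brings the 5S RNP to the large subunit, was at 0.32, and RRS1, its partner, at 0.27. SSB, the La protein, was at 0.10, and MDM2, the ubiquitin ligase that the 5S RNP can bind, at -0.20. The median of the list was 0.10.

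Part of the other RNAs made by RNA polymerase III rose as well. Of 18 on the list that were measured, 9 passed as higher and none as lower. Over all genes tested 1.7% were called higher, and 2.92% of those with a mean of 5 or more. The median change of the 18 was 1.42, against 0.09 for all genes tested. RN7SK, on the list, changed by 0.31 and did not pass (limma adjusted p = 0.333). A separate symbol, 7SK, was tested outside this list and was called lower. The vault RNAs VTRNA1-3, VTRNA1-1 and VTRNA1-2 changed by 2.55, 2.05 and 1.48. RNU6ATAC, of the minor spliceosome, changed by 2.26, and RPPH1, the RNA of RNase P, by 2.06. RNU6-7, RNU6-1 and RNU6-8 are genes of U6 snRNA. They changed by 1.48, 1.42 and 1.42, the last 2 on identical values. When single arrays were dropped, limma adjusted p-values went as high as 0.0756 for VTRNA1-3, 0.107 for RNU6-7 and 0.116 for RNU6-1. RNY1, a Y RNA, changed by 1.59. VTRNA2-1, at a mean of 3.38, had a change of 0.02, and BCYRN1 one of 0.30. RN7SL1 and RN7SL2, the RNA of the signal recognition particle, lay at the array maximum of 19.93, where no change can be read.

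Of the other ribosomal RNAs, RNA5-8SN5, made by RNA polymerase I, read 18.6, 18.8 and 18.6 with apoM overexpression, against 17.8, 17.9 and 18.0 in NC, a log2 change of 0.75 (SE 0.15, limma adjusted p = 0.0415). That call was lost in 9 of 14 alternatives, and its limma adjusted p went as high as 0.142 when single arrays were dropped. RNA28SN5 was at 0.36 (SE 0.16, adjusted p = 0.251). RNA18S5 lay at the array maximum and could not be read. The other 7 symbols of that list were not matched to a feature with a single symbol.

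Other short transcripts were also called higher more often than genes of all kinds. Among 1194 other genes of 80 to 150 bases in RefSeq with a mean of 5 or more, 146 passed as higher and 13 as lower, which is 12.2% higher, and the median change was 0.15. Among the 135 of them with a mean of 10 or more, 66 passed as higher and 2 as lower, which is 48.9% higher, with a median change of 1.30. Among the 5S symbols with a mean of 10 or more, 32 of 33 passed, with a median change of 2.34. The 33 include the 10 5S genes on 3 distinct sets of values. Of the 23 pseudogenes among them, 22 passed, with a median change of 2.27. These bounds on length and level were set after the 5S values were seen. The part of transcript length, or of how well short RNA was recovered in each sample, in the change of the 5S symbols was not tested.

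**Figure D3:**
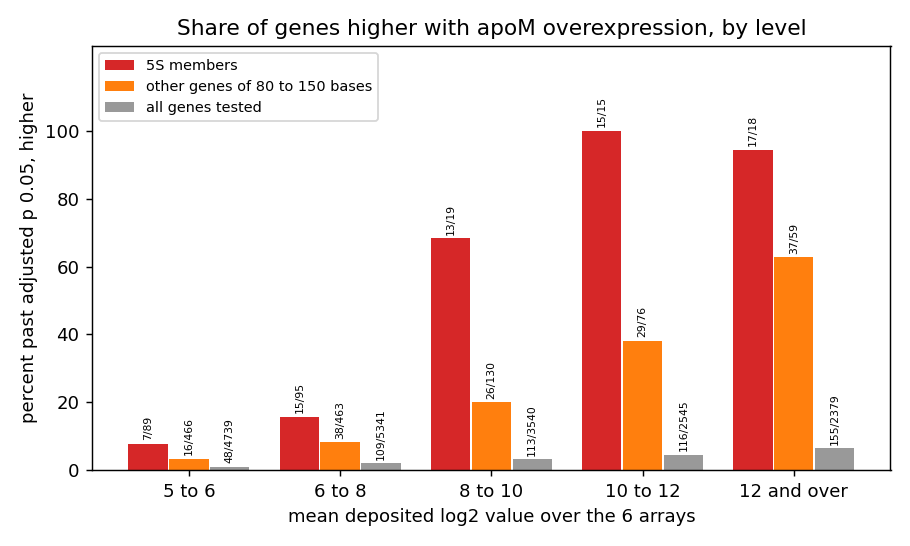
Percent of genes called higher with apoM overexpression (limma adjusted p under 0.05), by class of mean deposited log2 value, for the 236 5S symbols, for other genes of 80 to 150 bases and for all genes tested; the numbers on the bars are the genes called and the genes in the class. In each class the 5S symbols have the highest share, and in the brightest class 17 of 18 5S symbols, 37 of 59 other short genes and 155 of 2379 of all genes were called. Of these 18 5S symbols, 10 are the 5S genes, on 3 distinct sets of values.

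The single arrays differed within each group. Each array's difference from the gene's 6-array mean was taken. The medians of the 10 5S genes were 1.54, 1.59 and 0.80 on apoM overexpression replicates 1, 2 and 3. On NC replicates 1, 2 and 3 they were -2.08, -1.21 and -0.64. As RNA5S11 to RNA5S16 make up most of the 10 symbols, these medians are the values of that 1 shared set. The sets of RNA5S17 and RNA5S9 do not show in them. The medians of the other RNA polymerase III RNAs were 0.81, 0.83 and 0.40 with apoM overexpression and -0.98, -0.74 and -0.26 in NC. Those of the other short genes with a mean of 10 or more were 0.80, 0.69 and 0.36 with apoM overexpression and -0.96, -0.69 and -0.19 in NC. In all 3 sets apoM overexpression replicate 3 and NC replicate 3 lay closest to the middle, as they did on the first principal component. Of the 67 symbols that passed, replicate 3 was the lowest apoM overexpression array in 49 and the highest NC array in 54. Over all 33616 genes tested replicate 3 was the lowest apoM overexpression array in 11949 and the highest NC array in 14829. What sets these arrays apart was not tested.

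**Figure D4:**
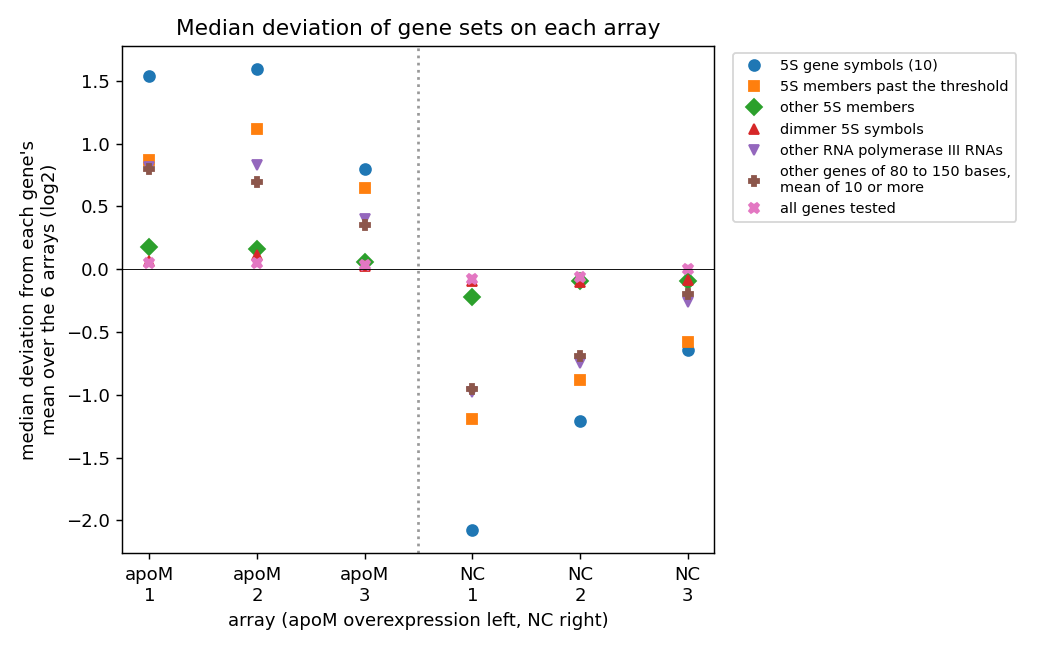
Median difference on each array from the gene's 6-array mean, in log2 units, apoM overexpression on the left of the dotted line and NC on the right; each point is the median of one set of genes on one array. The medians of the 10 5S genes span from -2.08 on NC replicate 1 to 1.59 on apoM overexpression replicate 2, and are the values of the set shared by RNA5S11 to RNA5S16. The other RNA polymerase III RNAs and the other bright short genes follow in the same direction with smaller values. The dimmer 5S symbols and all genes tested stay near 0.

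With 3 arrays a group, the number of symbols past the threshold depended on single arrays, while all 67 stayed higher in each fit that left out 1 array. Leaving out NC replicate 3 gave 80 of the 236 past the threshold in either direction, and leaving out apoM overexpression replicate 3 gave 55. Leaving out NC replicate 1 gave 32, apoM overexpression replicate 2 gave 11, NC replicate 2 gave 4, and apoM overexpression replicate 1 gave 1, which was RNA5SP242. The log2 change of RNA5S17 ran from 2.87 to 3.63 over these fits, with a highest limma adjusted p of 0.0702. That of RNA5S11 ran from 2.24 to 2.95, with a highest limma adjusted p of 0.0900.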

How the data were processed

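The deposited table held log2 values, judged from their range, of 135750 features on 6 arrays (3 apoM overexpression, 3 NC). The submitters' processing notes name Affymetrix Expression Console as the software behind the deposited log2 values. Version, normalization and genome build: not given in the sources used here, hence no coordinates are printed. Signal over background was not used here. Features were named through the platform annotation (36176 with 1 symbol, 1119 with several, 98455 unnamed here), and the brightest feature of each symbol was kept, giving 33616 genes. Lengths, types and gene spans came from RefSeq, GRCh38.p14.

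The comparison used limma 3.58.1 under R 4.3.3 (linear model with empirical Bayes moderation, two-sided, Benjamini-Hochberg over all genes, threshold 0.05). On simulated arrays of all 33616 genes, with changes planted in genes with a mean of 5 or more, 2% of planted log2 changes of 0.5 were recovered, 32% of 1, 74% of 2 and 98% of 4, with 4 false calls. The noise was drawn independently for each gene and array. Differences that many genes share on an array were thus not simulated, and the number of false calls does not cover them. Figures used matplotlib 3.10.9 in Python 3.11.15.

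The members, lists and tests were chosen with earlier results of these data known. Named were APOM, all members past the threshold, the 3 brightest, the 3 largest rises and 3 lowest changes, the 2 members and 2 symbols at the edge of the rule, all 5S genes and up to 4 genes of each list with the smallest p. A few others were named after their values were seen. The alternatives tried are given in the closing section. No 5S sequence was in the tables used, so none is printed.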

Additional observations from a re-analysis of the deposited data

How the results depend on the processing

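The 67 5S symbols past the threshold became 66 with array medians subtracted, 74 with trend and robust moderation, 75 with quantile normalization, 80 with array weights, 83 when genes with a mean of 5 or more were tested alone, and 94 at an adjusted p of 0.1. Of these, 1 was lower with trend and robust moderation, and 2 each were lower with array weights, with genes of a mean of 5 or more and at an adjusted p of 0.1. With every feature tested singly, 1 passed. Over all genes tested, 691 calls became 1251 with trend and robust moderation, 1679 with array weights, 1627 for genes with a mean of 5 or more, 2327 at an adjusted p of 0.1 and 2 with every feature tested singly. The median change of the 5S symbols, 0.50, was 0.40 with the level rule at 4 and 0.78 with it at 6. Over the fits that left out 1 array, the 5S count ran from 1 to 80, with 1 lower without apoM overexpression replicate 3 and 2 lower without NC replicate 3, and the count over all genes from 2 to 2358. All 67 stayed higher in every refit listed here. Counting identical features once, an alternative chosen after seeing the data, gave 60. The cause of these differences was not tested.

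The labels do not say whether same-numbered arrays were paired. Deviations of same-numbered arrays correlated at -0.07, 0.03 and -0.07, and those of other pairs of arrays at -0.05 to 0.12. No pairing showed in these values, but with 3 arrays a group they cannot exclude it. With the replicate number as a block, 26 5S symbols and 50 genes in all passed.

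The symbols at the edge of the rule changed sign in some settings. RNA5SP197 ran from -0.10 to 0.24, RNA5SP459 from -0.12 to 0.063, RNA5SP482 from -0.40 to 0.11 and RNA5SP35 from -0.18 to 0.26 with 1 array left out, and RNA5SP35 was at 0.016 with array weights. The small number of arrays limits the precision of all values.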
